A study of Mus musculus with 2 samples.

Results

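Short sequence tags that end in CCA, the 3 bases of the tRNA tail, were collected from small RNA libraries of J1 mouse embryonic stem cells. They are tags of 18 to 26 nt in the DMSO list and of 15 to 17 nt in the SC1 list whose last 3 bases are CCA and which match no mouse miRNA hairpin. The rule took 12654 of the 910008 distinct tags of the DMSO list, with 312693 of its 18870345 reads. In the SC1 list it took 765 of 88867 tags, with 13559 of 1275599 reads. Together these were 13419 of 998875 tags.

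J1 is an established embryonic stem cell line of the strain 129S4/SvJae, grown on gelatin with 1000 U/mL LIF, a cytokine that holds such cells undifferentiated. The cells received 1 µM SC1 or the same volume of DMSO, the solvent control, for 6 h, and the purpose of the series was to find miRNAs that SC1 regulates. With 1 library for each treatment there is no replicate error. DMSO tags ranged from 18 to 44 nt and those of SC1 from 3 to 17 nt, so no tag length occurred in both lists, and the total of a list is that of a length class, not a library depth. No difference between DMSO and SC1 was therefore computed, and each list is described on its own. Intervals are exact (Clopper-Pearson) 95% binomial intervals, which cover counting error only, since without molecular identifiers a read is not an independent molecule. As a check of the cell label, the stem cell hairpins miR-290 to miR-295 held 28.2% of the reads that matched a hairpin in the DMSO list and 45.6% in the SC1 list. Fibroblast hairpins held 0.177% and 0.0695%, and neural hairpins 0.236% and 0.0373%.

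Transfer RNA carries amino acids to the ribosome. In mouse, the enzyme TRNT1 adds CCA to the 3′ end after transcription, and the amino acid is joined to its last base. Cells also cut tRNA into fragments, and those that keep the mature 3′ end run from the T loop to the tail. Position 58 in the T loop is an adenosine that is often methylated at N1, a change that blocks base pairing and is known to make reverse transcriptase stop or misread. In these libraries the modification was not measured, only the base that was read there.

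In the standard numbering the tail is positions 74 to 76, and position 58 lies 19 bases from the 3′ end. A complete tag of 22 nt starts at position 55, a tag of 23 nt at position 54 and a tag of 17 nt at position 60. The gene n-TVcac9, a valine tRNA gene, is shown because it heads the SC1 list and ranks 3 in the DMSO list. It lies at chr13:23446142-23446214 on the minus strand of GRCm38, and is printed without the tail, which the gene does not encode, with position 58 in capitals. Its bases were read from a RefSeq promoter window that covers it.

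n-TVcac9 gene: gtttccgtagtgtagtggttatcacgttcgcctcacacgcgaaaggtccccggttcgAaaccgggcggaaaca

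Its most frequent members follow, with position 58 and the tail in capitals. The gene has A at position 58, and the members had each of the 4 bases there.

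DMSO, 22 nt, 9437 reads: tcgTaaccgggcggaaacaCCA
DMSO, 22 nt, 8821 reads: tcgAaaccgggcggaaacaCCA
DMSO, 22 nt, 2884 reads: tcgGaaccgggcggaaacaCCA
DMSO, 22 nt, 234 reads: tcgCaaccgggcggaaacaCCA
DMSO, 23 nt, 491 reads: ttcgTaaccgggcggaaacaCCA
DMSO, 18 nt, 468 reads: aaccgggcggaaacaCCA
SC1, 17 nt, 4293 reads: accgggcggaaacaCCA
SC1, 16 nt, 266 reads: ccgggcggaaacaCCA

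Members with the same last 15 bases (12 bases and the tail) were treated as a family, since fragments of 1 tRNA share their 3′ end and differ in where they begin. In 84 DMSO families the bases TTC stood 23 to 21 bases from the 3′ end, where the T loop of a tRNA has them (positions 54 to 56). These are called families with the T loop. A family was placed in this group if at least 50% of its reads of 23 nt or more had TTC there, over at least 10 such reads. The 235 families with enough reads separated without overlap: the lowest share in a family with the T loop was 82.1%, the next 96.5%, and the 151 other families had no such read. That grouping was set after the data were seen, and the rule for members did not use it.

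The families that carry most reads are shown by their leading tags, to contrast those with and without the T loop. The first 5 have the T loop, and the last 5 do not. The tail is in capitals, and so is position 58 in DMSO families 2 and 5. In the tag of DMSO family 1 bases are missing there, and the tags of SC1 family 3 and DMSO family 9 begin after it.

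DMSO family 1, 21 nt: ttcatcacgtcggggtcaCCA
DMSO family 2, 22 nt: tcgTttccggctcgaaggaCCA
DMSO family 5, 22 nt: tcgTttcccggccaacgcaCCA
SC1 family 3, 17 nt: accgggcagaaacaCCA
DMSO family 9, 18 nt: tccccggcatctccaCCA
DMSO family 4, 23 nt: tggcagtgatgagtactgagCCA
DMSO family 6, 25 nt: aggtgtagaataagtgggaggcCCA
DMSO family 7, 22 nt: tgagaaacggctaccacatCCA
DMSO family 8, 24 nt: ccgacttagaactggtgcggaCCA
DMSO family 10, 23 nt: ccaagcgttggattgttcacCCA

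The expected rate of the tail was taken from the other 3-base ends. Among DMSO reads of 18 to 26 nt without a hairpin match, 2.17% (2.17 to 2.18%) ended in CCA, which ranked 13 of the 64 possible 3-base ends. That was 1.40 times the mean of the 63 other ends and 1.88 times their median. It was 0.807 times the 2.69% given by multiplying the shares of the 3 bases at the last 3 positions, but 1.27 times the expected number when distinct tags were counted. The same 3 bases in other orders were less frequent, CAC at 0.607% and ACC at 0.306%, so that CCA had 3.58 times the reads of CAC and 7.11 times those of ACC. The most frequent ending was CCC at 9.31%, and a single tag held 779779 of its 1339748 reads, which enter the base shares.

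Of SC1 reads of 15 to 17 nt, 1.36% (1.34 to 1.38%) ended in CCA, rank 26 of 64. This was 0.870 times the mean of the 63 other ends, 1.51 times their median and 1.39 times the share expected from single bases (0.979%). It had 3.82 times the reads of CAC and 9.09 times those of ACC. By distinct tags the ranks were lower, 26 in the DMSO list and 39 in the SC1 list.

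CCA was more frequent at the very end of the tags than just before it, a comparison that was not made for other 3-base strings. In the DMSO list CCA made up 2.17% of the last 3 bases, but 0.345% when 1 base followed it, and from 0.247 to 0.601% when 2 to 10 bases followed. For SC1 it was 1.36% at the end and 0.223% when 1 base followed. The 2.17% divided into 1.20% in reads placed on tRNA or in families with the T loop and 0.974% in other reads, and the 1.36% of the SC1 list into 0.992% and 0.370%. Such reads were looked for only among tags that end in CCA, so this split is not compared with the other ends.

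**Figure D1:**
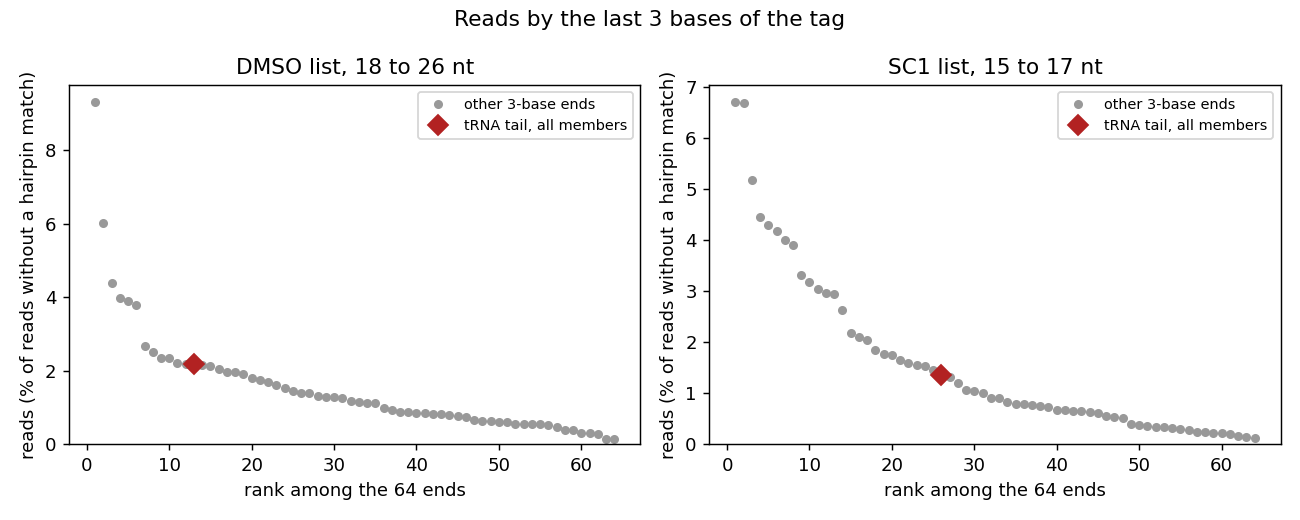
Share of reads (y axis, % of reads without a hairpin match) for each of the 64 possible 3-base ends, ordered by rank (x axis), in the DMSO list (left) and the SC1 list (right). The diamond is the tail, at rank 13 in the DMSO list and rank 26 in the SC1 list.

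Members had a narrow length profile. In the DMSO list 22 nt held 134261 of the 312693 reads (42.9%), followed by 23 nt with 18.0% and 24 nt with 9.09%. Families with the T loop were more concentrated, with 66.4% of their 171389 reads at 22 nt, 15.0% at 23 nt, 6.17% at 21 nt and 3.93% at 18 nt. Counted back from the tail, complete tags of 22, 23 and 18 nt begin at positions 55, 54 and 59. At 21 nt, 6327 of the 10572 reads were the leading tag of DMSO family 1, which begins with TTC and lacks 2 bases, so length does not give its first position. The other families spread over 19 to 26 nt and peaked at 23 nt with 21.7%. All DMSO tags of this window without a hairpin match, members included, were spread more evenly, and 22 nt held 13.4% of their reads.

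In the SC1 list 17 nt, the longest length it holds, had 11285 of 13559 reads (83.2%), 16 nt had 11.3% and 15 nt 5.47%. In families with the T loop 17 nt held 91.6% of the reads, and in other families 61.1%. Across all tags of 15 to 17 nt without a hairpin match, members included, 17 nt held 52.3%. Just outside the length limits, 0.879% of DMSO reads of 27 nt and 0.504% of SC1 reads of 14 nt ended in CCA.

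**Figure D2:**
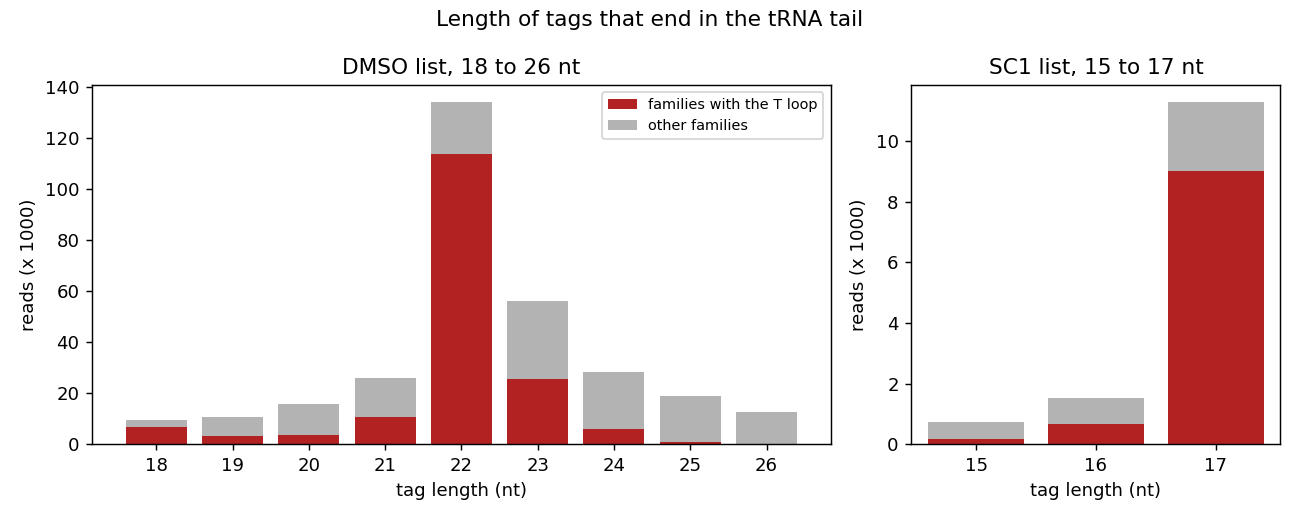
Member reads (y axis, in units of 1000 reads) by tag length in nt (x axis) in the DMSO list (left) and the SC1 list (right), stacked by families with the T loop and other families. Families with the T loop make up most of the 22 nt peak of the DMSO list and most of the 17 nt reads of the SC1 list.

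Few families held most of the reads. The DMSO members formed 7222 families, of which 5061 had a single read, and the 10 leading families held 57.1% of the reads. The SC1 members formed 557 families, and the 10 leading ones held 77.01%. The lists shared 307 families, which held 97.6% of the SC1 member reads and 76.2% of the DMSO member reads. Families with the T loop held 54.8% of the DMSO and 72.6% of the SC1 member reads, and took 5 of the 10 leading places in DMSO and 6 in SC1. Of the leading 10, 4 families were in both lists.

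The leading DMSO family had 37088 reads (11.9%) in 162 distinct tags. Among SC1 families it ranked 14, with 116 reads (0.856%). DMSO family 2 had 33799 reads (10.8%), of which its leading tag held 23454, and was also second in SC1 with 1317 reads (9.71%). The valine family of n-TVcac9 had 23552 DMSO reads (7.53%) and 4589 SC1 reads (33.8%), the most of any SC1 family. These shares cannot be compared between conditions, because SC1 members of 15 to 17 nt begin at position 60 or later. Its 17 nt tag alone had 4293 reads, and without it the leading SC1 family held 14.2% of the member reads.

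The other leading families with the T loop were smaller. DMSO family 5 had 13836 reads in the DMSO list and 242 in the SC1 list. DMSO family 9 had 8395 and 343 reads. SC1 family 3, which differs from the valine family in its last 15 bases, had 1674 DMSO and 1145 SC1 reads. The fourth SC1 family had 1052 SC1 and 1145 DMSO reads and A at position 58 in all 757 reads that placed it.

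A nuclear tRNA gene could be read in the reference for 15 of the 408 that RefSeq lists, because a transcript or promoter window covered it, and 13 of these were read whole. All 15 had A at position 58. Their families are named by gene, although other tRNA genes may share the same last bases. The glycine gene n-TGccc7 had 4097 DMSO reads and 96 SC1 reads. The serine genes n-TSaga9, n-TStga1 and n-TStga2 share 1 family, with 4032 and 94 reads, and the serine gene n-TSgct5 had 4009 and 32. The arginine gene n-TRtcg5 had 1657 DMSO reads, the alanine gene n-TAagc16 had 1485, the asparagine gene n-TNgtt7 had 1191 and the threonine gene n-TTagt9 had 1155. The arginine gene n-TRtct4 had 1020 DMSO reads, the isoleucine gene n-TItat14 had 512, the leucine gene n-TLaag4 had 499, the arginine gene n-TRtct2 had 382 and the proline gene n-TPtgg2 had 1. The genes outside the 10 leading families are named because their sequence could be read, a choice made after the values were seen. The genes n-TAagc16 and n-TLaag4 themselves end in CCA, so a tag of theirs can end in these bases before the tail is added.

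Mitochondrial tRNA, which is encoded and given its tail in mitochondria, contributed almost nothing. Of its 22 genes, 15 had an exact member in the DMSO list, with 109 reads in all, and 2 had one in the SC1 list, with 2 reads. The highest was mt-Tg with 21 DMSO reads, so none reached 100.

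The base read at position 58 varied strongly. Among DMSO members of 23 nt or more with TTC in place (33152 reads), 74.1% (73.6 to 74.6%) had a base other than A. A was read in 25.9%, T in 41.1%, G in 30.99% and C in 2.02%. Without the leading family, which held 17331 of these reads, 68.6% had another base than A. In tags of 22 nt, which hold position 58 but not all of TTC, A was read in 28.7%, T in 56.7%, G in 12.8% and C in 1.87% of the reads of families with the T loop.

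The neighbouring positions differed much less from the most frequent base of their own family. At position 57 the share of differing reads was 5.56%, at position 58 it was 49.1%, at position 59 15.4%, at position 60 0.113% and at position 61 0.0336%. Most of the differences at position 59 were in the leading family, and without it the share there was 2.27%, against 36.6% at position 58. In the leading family G stood at position 59 in 48.9% of the reads with G at position 58, in 10.7% of those with A there and in 14.1% of those with T.

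Most families with the T loop showed other bases. In the 35 families with at least 100 reads that placed the loop, the share other than A had a median of 83.2% and reached 94.0%, and it was over 50% in 29. T was the most frequent of the other bases in 29 families and G in 3. In the valine family 72.9% (70.0 to 75.6%) of the 985 reads of 23 nt or more had another base. A was read in 27.1%, T in 56.95% and G in 14.7% of these. They are a small part of its 23552 DMSO reads, of which 90.96% were 22 nt long. At 22 nt its leading tags had T in 9437 reads, A in 8821, G in 2884 and C in 234, so A was nearly as frequent as T. DMSO family 2 had another base in 90.4% of 883 such reads and DMSO family 5 in 82.3% of 412, and both families were also mostly 22 nt long. Among genes that were read, the glycine family of n-TGccc7 had T in 78.4% and G in 1.78%. The asparagine family of n-TNgtt7 had T in 49.9% and G in 38.9%. In the arginine family of n-TRtct2 G (45.1%, 121 of 268 reads) and T (43.3%, 116 reads) were about equal.

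Some families kept A. The alanine family of n-TAagc16 had another base in 5.22% (2.13 to 10.5%) of 134 reads, and DMSO family 9 in 29.8% (26.6 to 33.1%) of 806. In 18 of the 84 families with the T loop every read that placed the loop had A, over 1492 reads in all, and none of these matched a readable tRNA gene. They held 2580 DMSO member reads (0.825%) and 1124 SC1 member reads (8.29%), and whether they come from mouse was not tested, so their sequences are not shown. They count among the families with the T loop here and are part of the tRNA shares given for both lists. Without them the share of another base than A was 77.6%.

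**Figure D3:**
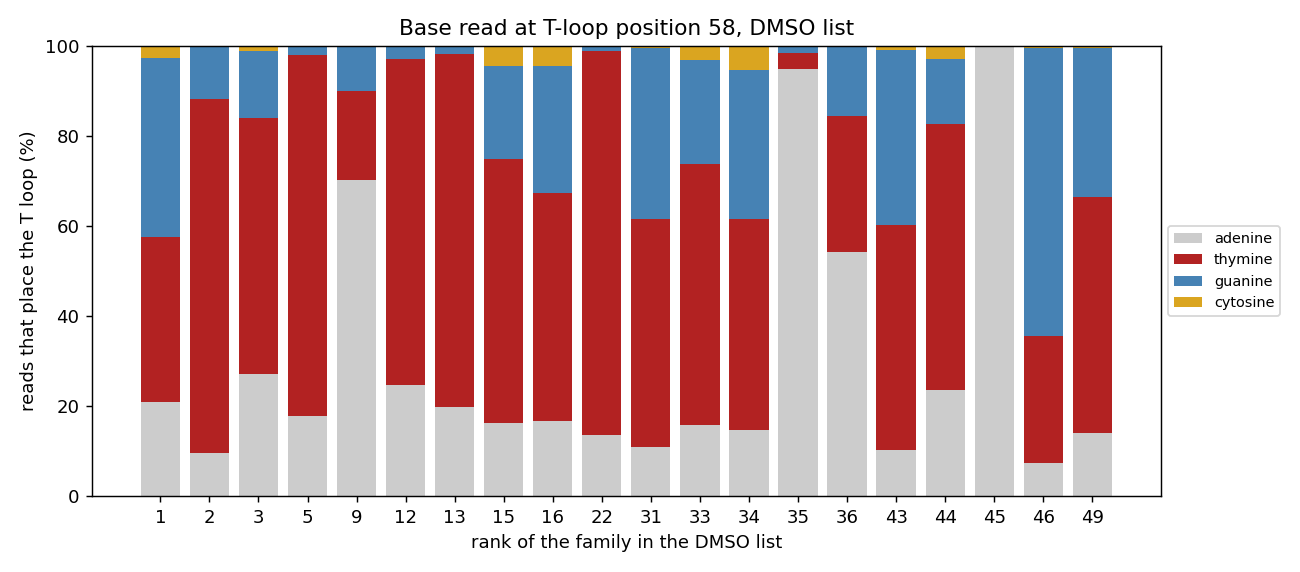
Base read at position 58 (y axis, % of DMSO reads of 23 nt or more with the T loop in place) for the first 20 families by DMSO rank (x axis) with at least 100 such reads. Thymine or guanine make up most of the reads in most families, while the family of rank 35 (n-TAagc16) has 94.8% adenine and that of rank 45 has adenine in every read.

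Bases were also missing at this place. Of 33909 DMSO reads in families with the T loop that otherwise kept the family's own bases around position 58, 23.4% lacked 2 bases at or beside it and 0.298% lacked 1. In the leading family the share lacking 2 bases was 35.9%, and without that family it was 9.15%. Reads with another base than the family's own beside position 58 are not in these totals. An example is the tag below with 3173 reads. The total of the leading family holds 3344 reads with G at position 58, whereas 6890 of its reads had G there. Set against all reads that hold position 58, the same reads lacking 2 bases would be a smaller share. The most frequent tags of the leading family show the missing bases, with position 58 in capitals where it is present.

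2 bases missing, 6327 reads: ttcatcacgtcggggtcaCCA
T at position 58, 4661 reads: ttcaTatcacgtcggggtcaCCA
G at position 58, 3233 reads: ttcaGatcacgtcggggtcaCCA
G at both positions 58 and 59, 3173 reads: ttcaGgtcacgtcggggtcaCCA
A at position 58, 2849 reads: ttcaAatcacgtcggggtcaCCA

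In the valine family 0.599% of 1002 reads lacked 2 bases, and in DMSO family 2 0.999% of 701. Smaller families reached similar shares, and the family that ends in CGGGTGCCCCCTCCA, named after its value was seen, lacked 2 bases in 43.6%.

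The bases TTC were also looked for at the same place ahead of other ends. Among DMSO reads of 23 nt or more that ended in CCA, 28.6% had TTC at bases 23 to 21, against 0.859% over the 63 other ends and 0.103% for ACC. CAC exceeded CCA with 56.6%, and 71.0% of those reads came from a single 25 nt tag with 22827 reads, ggttccatggtgtaatggttagcac. TTC at this place does not by itself show a T loop, and whether that tag holds one was not tested.

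The tail could be complete or partly present. Of 311351 DMSO reads in tags that held the body of a family with the T loop, 55.2% ended in the whole tail, 36.0% ended at the body, 2.67% had C added, 3.78% had CC and 0.806% went on past the tail. The leading family ended at the body in 69.1% and in the tail in 28.0% of 132325 reads. Other leading families ended mostly in the tail: 95.2% in DMSO family 2, 86.5% in the valine family, 92.1% in DMSO family 5 and 81.6% in DMSO family 9.

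In families that were not assigned a T loop the tags often went on past CCA. For each family with at least 100 DMSO reads, reads whose tags contain the 15 bases and continue were counted for every 100 that end there. In the 58 families with the T loop the median was 0.611, and 56 were under 10. In the 88 other families the median was 91.6, and 12 were under 10. Some of the 88 are tRNA endings. The last 15 bases of DMSO family 42 precede the tail in DMSO family 9, and it continued 718 times per 100. DMSO families 47 and 78 are the last 15 bases of n-TLaag4 and n-TAagc16, whose own CCA precedes the tail, and continued 61.0 and 430 times. DMSO family 50 had TTC in all 9 reads of 23 nt or more, too few to be assigned. DMSO family 4 continued 39.7 times per 100, DMSO family 6 53.9 times, DMSO family 7 13.6 times, DMSO family 8 91.8 times and DMSO family 10 48.4 times.

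The leading tag of DMSO family 6 without its last A was the most abundant tag of the whole DMSO list, with 779779 reads against 12237 for the member. The leading tag of DMSO family 8 without CCA ranked 3 in the list, with 202012 reads against 8461. For these families the CCA ending was a minor form of a far more abundant tag. SC1 families 5, 7, 9 and 10, with 1020, 341, 213 and 180 SC1 reads, also had no T loop. In the DMSO list they had 3199, 185, 289 and 1627 member reads, and for every 100 reads that ended there the reads that continued ranged from 91.4 in SC1 family 5 to 5012 in SC1 family 9.

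**Figure D4:**
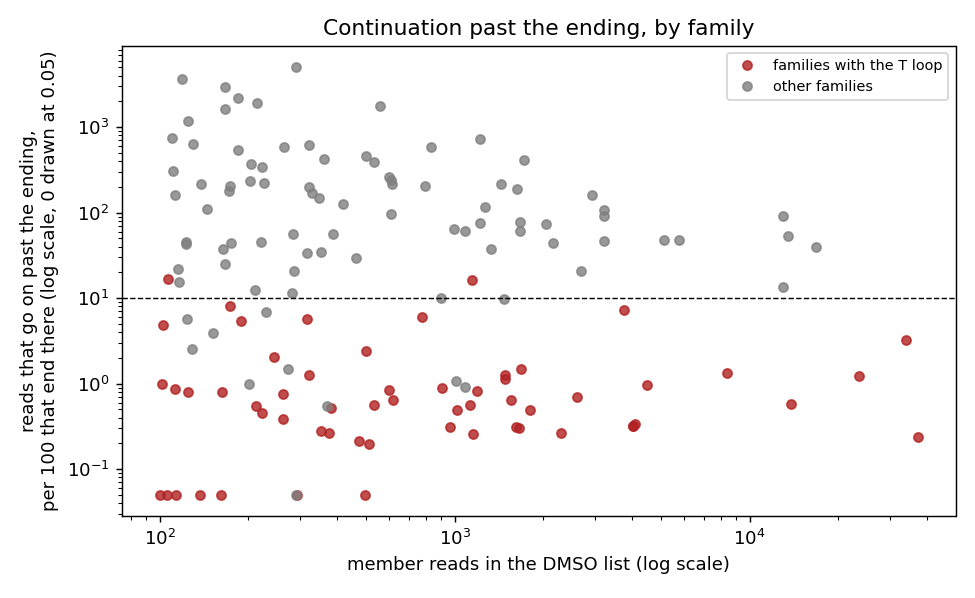
Reads that go on past the family's ending for every 100 that end there (y axis, log scale, 0 drawn at 0.05) against member reads in the DMSO list (x axis, log scale), for families with at least 100 reads; the dashed line is at 10. Families with the T loop lie below the line with 2 exceptions, and most other families lie above it.

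The label of these tags, endings of tRNA, held for a part of the reads. In the DMSO list 15.98% of the member reads were placed on a readable nuclear tRNA gene. Of these, 16030 reads matched exactly, 25470 differed at position 58 only, 6800 had 1 change elsewhere and 367 lacked 1 or 2 bases at the T loop. A change elsewhere could lie in the last bases, so this class also holds reads of families not named for a readable gene. A further 39.2% fell in families with the T loop without a readable gene, and 0.0352% on mitochondrial tRNA. The 3 classes together held 55.2% (55.01 to 55.36%). In the SC1 list they held 36.9%, 35.9% and 0.0148%, together 72.9% (72.1 to 73.6%). Without the 18 families that had A in every read, the 3 classes held 54.4% of the DMSO and 64.6% of the SC1 member reads. Without the single 17 nt valine tag the readable and mitochondrial classes held 7.74% of the SC1 reads and the 3 classes together 60.3%.

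Reads outside these classes matched other RNA or nothing in the reference. In the DMSO list 6.84% of the member reads matched another transcript over the whole tag. Gm42418 or Gm26917, loci known for ribosomal RNA sequence, held 3.23% and protein-coding transcripts 3.15%. In the SC1 list 13.1% did so, 11.3% in Gm42418 or Gm26917, which include the fifth SC1 family with 1020 reads. A further 2.14% of DMSO reads matched a transcript except for the last 1 to 3 bases, and Mir298, a miRNA hairpin gene, held 68.6% of these 6704 reads. In the SC1 list 7.97% of the reads matched except for the last 1 to 3 bases, and 4.26% did so only after 3 bases were removed.

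Of the DMSO member reads, 32.4% matched no transcript but ended in 15 bases that longer DMSO tags continue, at least 10 reads for every 100 that end there. The 3 tRNA classes took a gene's own CCA only by exact match, which gave 313 DMSO reads. DMSO families 42, 47 and 78, with 1217, 1085 and 362 reads, are tRNA endings but were therefore largely left outside the tRNA classes. Their reads without a transcript match fall here. The genome was not used, so the source of the other reads was not tested. The remaining 3.40% were not placed by any of these steps. The last classes held 4.47% and 1.66% of the SC1 member reads. As a measure of chance matches of whole tags, reversed tags matched a transcript in 0 of 312693 DMSO member reads. This allows a share of up to 0.000959% of reads by the limit of 3 counts used for a count of 0. All reads of a tag match together, and the members are 12654 distinct tags, so that limit is too narrow for chance matches. In the SC1 list the share was 1.23% of the member reads, close to the 1.45% that matched protein-coding transcripts over the whole tag. Chance matches after removal of the last 1 to 3 bases were not measured.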

How the data were processed

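Total RNA was sequenced as small RNA from 1 DMSO and 1 SC1 sample of J1 cells. The authors deposited, for each library, a list of distinct tags with raw read counts, not normalized; a last line of the DMSO list that held only the total was left out. The submitters' processing notes name mm9, but the files carry no coordinates. How adapters were trimmed, lengths filtered and reads aligned is not given in the sources used here.

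Reads of members were summed by ending, length and last 15 bases. Exact sense matches of tags were sought in GENCODE M21 transcripts and hairpins (GRCm38), with the tail removed for tRNA. RefSeq (GRCm38.p6) lists 408 nuclear tRNA genes, and 15 were read from transcripts or RefSeq promoter windows. The classes were applied in the order in which they are described, and families with the T loop counted as tRNA in place of the planned search for tRNA folds in a genome, which was not used here. With 1 library per condition and no shared length no test was made. Named families are the 10 with the most reads in each list, with their leading tags, and mitochondrial tRNA families with at least 100 reads. The members and lists were chosen with earlier results of these data known.

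The counting of families and T-loop bases was tested on simulated data, drawn from the readable tRNA gene ends with TTC in place and from random bases. Other RNA with TTC at that place was not simulated, so the simulation cannot show how the grouping treats it. Alternatives were other minimum reads, distinct tags, other hairpin and transcript filters, other family keys and lengths, and the leading member left out. The software was Python 3.11.15 with scipy 1.17.1, numpy 2.4.6 and, for figures, matplotlib 3.10.9.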

Additional observations from a re-analysis of the deposited data

Results flagged for a closer look

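Tags outside the length limits carried the same endings. DMSO tags of 27 to 44 nt that ended in CCA and belonged to families with the T loop had 587 reads, 3.87% of the 15184 reads of that length with this ending. Of these, 568 had TTC in place, and 62.9% (58.7 to 66.8%) of them had a base other than A at position 58.

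The SC1 list also held the beginnings of DMSO members. Its tags of 17 nt that equal the first 17 bases of a DMSO member with the T loop, and do not end in CCA, had 46830 reads, 8.72% of all SC1 reads of 17 nt and more than the 13559 reads of all SC1 members. A single one, the first 17 bases of the leading tag of DMSO family 1, had 19255 reads. Both are signals in data that the rule for members leaves out, and the DMSO list holds no tags of 17 nt to set beside the second.

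SC1, 17 nt, 19255 reads: ttcatcacgtcggggtc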

How the results depend on the processing

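Values are given in the order CCA share of reads, share at the most frequent length, share of the leading family, share of the 10 leading families, share on readable or mitochondrial tRNA and share on tRNA or a family with the T loop; the share of other bases than A, where it moved, is named. Counting error was exceeded in 85 of 97 values, and 12 stayed within it. For DMSO these were 2.20, 43.6, 12.2, 58.6, 16.4 and 56.4% over tags with at least 2 reads, 2.21, 44.5, 12.6, 60.4, 16.7 and 57.3% over tags with at least 10 (74.9% other than A), and 1.67, 18.5, 1.28, 6.38, 5.05 and 18.8% by distinct tags (60.3% other than A). They were 2.50, 44.9, 12.8, 61.2, 17.2 and 59.1% without tags that match a transcript, and 2.01, 38.3, 12.8, 53.7, 17.3 and 51.6% without the member with the most reads. CCA reads over the mean of the other ends became 1.42, 1.42, 1.07, 1.61 and 1.29 times in the same order of settings.

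For SC1 the last 5 shares were 84.5, 35.0, 79.6, 38.2 and 75.0% over tags with at least 2 reads and 87.5, 37.3, 84.4, 40.1 and 77.7% over tags with at least 10. By distinct tags all 6 were 1.17, 45.6, 0.784, 6.41, 4.84 and 19.9%, and without the member with the most reads 0.935, 75.5, 14.2, 66.4, 7.74 and 60.3%. Without tags that match a transcript the CCA share was 1.33%, and the last 4 shares were 41.1, 82.4, 44.7 and 82.9%. The ratio to the other ends was 0.745, 0.594 and 0.850 times in these last 3 settings. Counting distinct tags, or leaving out the leading SC1 member, moved several of these values by over 1.5 times, as fewer reads or a single tag enter by construction.

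With hairpin matches kept, the CCA share was 1.95% and 1.25 times the other ends in DMSO, and 1.29% and 0.825 times in SC1. With near hairpin matches also left out it was 2.19% and 1.41 times, and 1.39% and 0.885 times. Families by the last 18 bases gave 8.86% for the leading one and 53.2% for 10. The share of other bases than A was 68.6% without the leading family. Over all members of 19 nt or more it was 67.8%, but 138392 of these 303040 reads lie outside families with the T loop, where base 19 is not known to be position 58 and 60.8% were other than A. In tags of 20 and 21 nt of families with the T loop, C took 48.9% and 69.8%, and tags with missing bases are shifted there, so the 67.8% does not bear on position 58. In tags of 18 nt alone the CCA share, the leading family and the 10 leading families were 1.42, 19.8 and 60.3%, and in SC1 tags of 17 nt alone 2.17, 38.1 and 86.1%. No paired analysis was possible because DMSO and SC1 had 1 library each. Families with few reads of 23 nt or more could not be assigned a T loop.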
